A study of Mus musculus with 6 samples.

Results

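The genes described here are 38 genes for the plasma proteins of blood clotting and complement, all of which are in a table of read counts for 21983 gene symbols from mouse liver. They were taken from the table by symbol, from a list of gene names. RNA of whole liver was sequenced in 6 C57BL/6 mice, and all of them had received thioacetamide (TAA), a liver toxin that leads to scarring, which they drank in their water at 400 mg/L over 16 weeks. In 3 mice, labelled Lrat-Cre; Prmt1f/f and called knockout mice here, Cre recombinase was driven from Lrat, a gene expressed in liver mainly by hepatic stellate cells, and the Prmt1 alleles were floxed. The other 3 mice, labelled Prmt1f/f and called control mice here, carried the floxed Prmt1 alleles without Cre. The labels give an age of 10 weeks, without saying whether this was before or after TAA, and no sex. No liver without TAA was measured, so every level below is that of a TAA-treated liver.

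Hepatocytes make most clotting and complement proteins and secrete them into plasma, mostly as inactive precursors. Clotting runs through a chain of serine proteases to thrombin, which turns fibrinogen into fibrin, while plasmin dissolves fibrin and serpins hold the proteases in check. Complement is started by antibody (classical pathway), by sugar-binding lectins (lectin pathway) or by C3 itself (alternative pathway), and all of these lead to cleavage of C3 and C5 and to the membrane attack complex. Many of these genes are driven by the liver factors HNF1, HNF4 and C/EBP, and several are acute-phase genes that respond to interleukin 6 through STAT3.

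Total counts ranged from 13303884 to 16462278 per liver. Values are given as CPM, a gene's count as a share of its liver's total after TMM scaling, always in the order control mice 42, 83 and 90, then knockout mice 49, 82 and 88. Prmt1, the arginine methyltransferase gene that the genotype targets, had 38.9, 44.4 and 49.8 CPM in the controls and 35.8, 24.7 and 25.8 CPM in the knockouts (log2 fold change -0.62, SE 0.20, adjusted p 0.347 in edgeR). The knockout livers lay below the control livers, with mouse 49 closest to them. Of 13 hepatocyte markers tested 9 had a positive log2 fold change (median 0.18), and their summed level was 82789 to 134029 CPM in controls and 102506 to 118811 CPM in knockouts. Of 12 stellate cell markers 11 had a negative log2 fold change (median -0.85), with summed levels of 1430 to 1678 CPM in controls and 501 to 1048 CPM in knockouts. In whole liver, fewer cells of a type and less RNA per cell cannot be told apart.

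Most of the 38 genes had higher counts in knockout livers, but none passed the test. All 38 were above the low-count filter, 33 had a positive log2 fold change (86.8%), beside 47.3% of all 13153 genes tested. The median was 0.38, and -0.02 over all genes. With edgeR's quasi-likelihood test and Benjamini-Hochberg adjustment over all genes at 0.05, 0 of the 38 were called, and the share over all genes was 0.00%. At an unadjusted p under 0.05, 7 were higher (Masp2, F7, Hc, F5, F13b, Serpind1 and C3, 18.4%) and 0 lower, beside 5.06% of all genes higher and 5.95% lower. DESeq2 called only Masp2 (adjusted p 0.0244), beside 0.875% of genes called higher and 0.936% lower, and limma-voom called 0. In 8 of the 38 genes (21.1%) every knockout liver lay above every control liver, in 0 the reverse, beside 8.94% and 7.95% of all genes. These 8 genes (Fga, F13b, F7, F5, Masp2, C3, Cfb and Hc) each had an exact permutation p of 0.1 (two-sided), and 3 livers against 3 can give none smaller. In Fga, F13b, F5, C3, Cfb and Hc the separation rests on TMM scaling. As unscaled shares of total counts their groups overlapped, while F7 and Masp2 stayed separate.

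Abundant genes as a whole leaned the same way. Among the 1616 genes of at least 100 CPM on average, 65.7% had a positive log2 fold change (median 0.16), 13.6% were higher at an unadjusted p under 0.05 and 20.1% had separate groups with the knockout livers above. Of the 38 genes 31 were that abundant: 26 were positive (83.9%, median 0.36), 5 were higher at an unadjusted p under 0.05 (16.1%) and 5 had separate groups (16.1%). The last 2 shares are near those of the abundant genes and are not a result about these 38 genes.

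**Figure D1:**
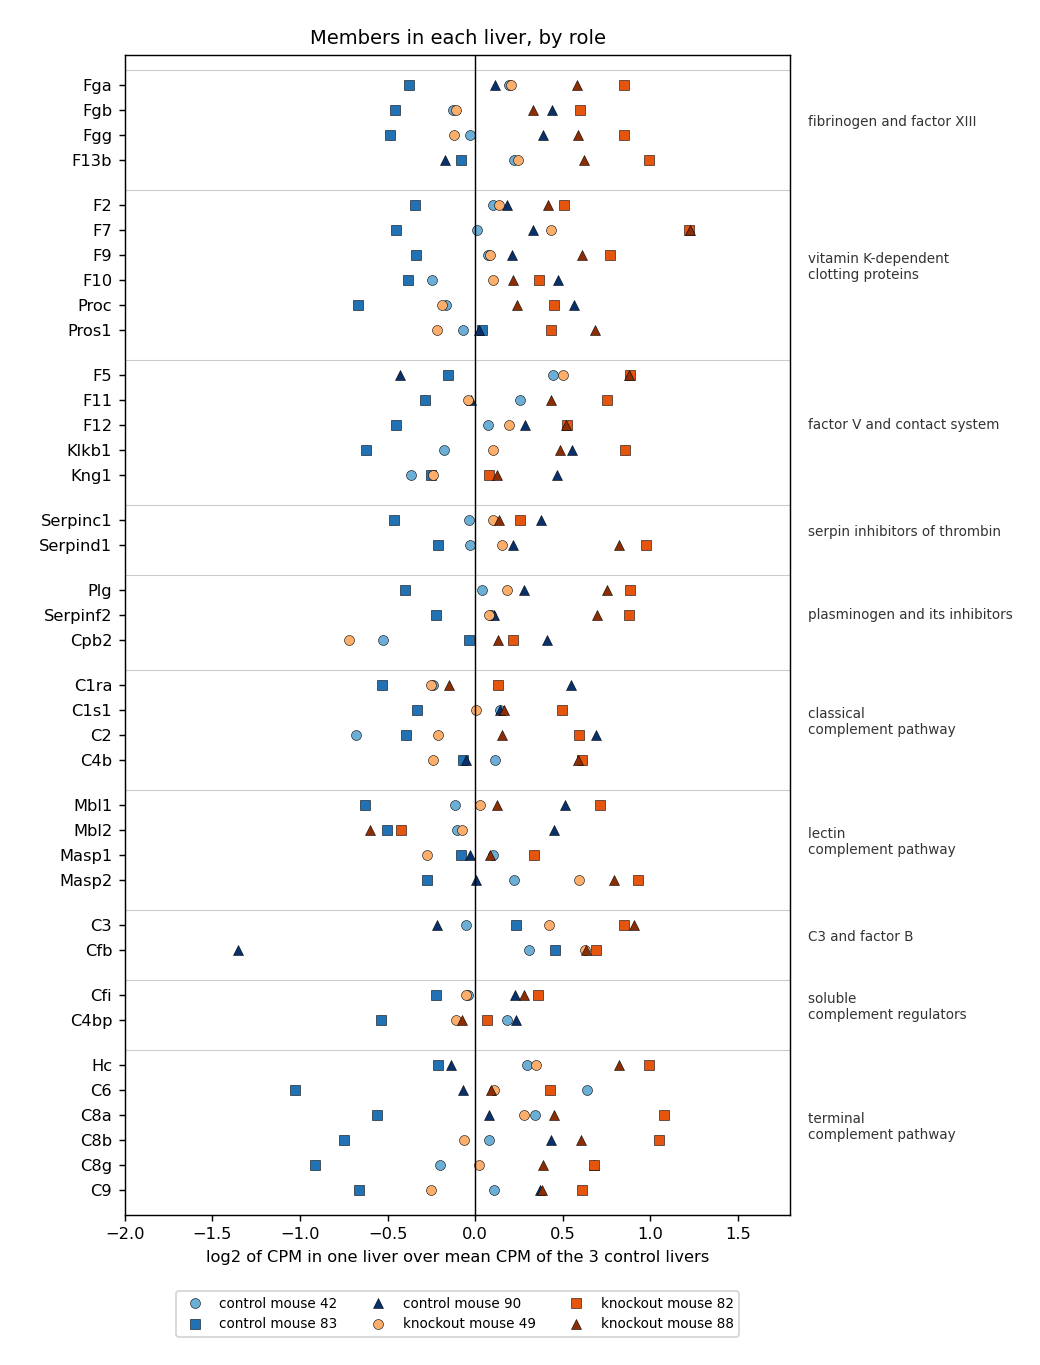
Each row is a gene, grouped by role; the horizontal axis is log2 of its CPM in a liver over the mean CPM of the 3 control livers, and each point is a liver. Control mouse 83 (blue squares) is the lowest liver in 27 of 38 genes and knockout mouse 82 (orange squares) the highest in 24.

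The spread within a genotype was as wide as the difference between genotypes. Control mouse 83 was the lowest of the 6 livers in 27 of 38 genes, and knockout mouse 82 the highest in 24. The median gene stood at 0.08, -0.33 and 0.26 log2 from the control mean in control mice 42, 83 and 90, and at 0.10, 0.74 and 0.52 in knockout mice 49, 82 and 88. In the median of these genes knockout mouse 49 thus lay among the controls, and it was below both other knockout mice in 36 of 38 genes. It was not like the controls in every list. Its summed stellate cell markers (501 CPM) and bile duct markers (284 CPM) were the lowest of the 6 livers. Its summed red cell markers were the highest, at 192 CPM, with 32.8 to 80.1 CPM in the other livers. Their part in its values was not tested. The hepatocyte markers were also lowest in control mouse 83 and highest in control mouse 90; their part in the order of the livers was not tested. The 38 genes took 3.10%, 3.04% and 3.12% of all counts in the control livers and 3.20%, 4.28% and 4.09% in the knockout livers. The count of 7 genes at an unadjusted p under 0.05 was 15 without knockout mouse 49 and 13 without control mouse 90, but 2 without knockout mouse 82, 2 without knockout mouse 88 and 3 without control mouse 83. The share of all genes higher by the same test was 5.81% and 5.26% in the first pair of fits, and 1.83%, 2.21% and 2.78% in the others. The count of 8 genes with separate groups was 23 without mouse 49 and 20 without mouse 90, where 15.9% and 13.1% of all genes had knockout livers above. Scaled to 13 hepatocyte markers, a choice made after seeing the data, 1 gene (F7) stayed under an unadjusted p of 0.05 and 3 had separate groups, 2 higher and 1 lower. All genes moved with it: 1.25% were higher at an unadjusted p under 0.05 and 2.05% had separate groups with knockout livers above. The median of the 38 genes was 0.24 under that scaling, where the median of all genes was -0.21. Rescaling moves all genes almost alike, so the gap between these medians (0.45, and 0.40 with TMM) could hardly change. It therefore says nothing about hepatocyte content.

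Promoters are shown for 5 of the 7 genes with an unadjusted p under 0.05, those whose 250 bases before the RefSeq start (GRCm38.p6) hold any of the motifs searched. F7 is among them only through a variant word that was added after its promoter had been read. Capitals mark the matches, and positions count back from -1, the base before the start.
F7, chr8:13025784-13026033, plus strand: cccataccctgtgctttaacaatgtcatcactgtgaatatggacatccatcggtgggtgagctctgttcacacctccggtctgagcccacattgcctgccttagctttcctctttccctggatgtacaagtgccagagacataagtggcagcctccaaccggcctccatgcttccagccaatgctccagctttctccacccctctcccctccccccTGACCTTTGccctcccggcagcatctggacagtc
Masp2, chr4:148602294-148602543, plus strand: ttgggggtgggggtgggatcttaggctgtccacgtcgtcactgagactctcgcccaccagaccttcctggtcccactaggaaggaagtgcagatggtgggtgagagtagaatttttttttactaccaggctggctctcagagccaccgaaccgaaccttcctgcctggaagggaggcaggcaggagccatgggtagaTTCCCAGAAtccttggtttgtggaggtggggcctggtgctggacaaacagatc
Hc, chr2:35061413-35061662, minus strand: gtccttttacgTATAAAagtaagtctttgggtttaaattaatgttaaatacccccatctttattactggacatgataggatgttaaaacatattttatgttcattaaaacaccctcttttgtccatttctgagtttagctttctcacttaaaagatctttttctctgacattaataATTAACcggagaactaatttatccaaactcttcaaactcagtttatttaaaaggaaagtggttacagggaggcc
F13b, chr1:139501457-139501706, plus strand: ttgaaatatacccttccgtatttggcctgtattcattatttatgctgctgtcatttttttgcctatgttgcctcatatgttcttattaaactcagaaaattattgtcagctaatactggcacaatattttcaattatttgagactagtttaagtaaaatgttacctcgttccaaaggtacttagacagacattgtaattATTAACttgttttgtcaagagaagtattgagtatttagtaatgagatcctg
C3, chr17:57228137-57228386, minus strand: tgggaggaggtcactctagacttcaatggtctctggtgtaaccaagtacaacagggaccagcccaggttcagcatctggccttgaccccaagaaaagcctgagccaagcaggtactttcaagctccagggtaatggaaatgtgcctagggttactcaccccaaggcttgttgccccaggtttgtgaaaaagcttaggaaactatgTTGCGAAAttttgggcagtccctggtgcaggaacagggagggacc

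Both strands were searched, and 30 of the 38 genes had a promoter in the table. The HNF1 half-site GTTAAT was found from -74 to -69 in Hc and from -51 to -46 in F13b, in both on the strand opposite to the printed one. It was in 8 of 30 promoters (26.7%: C4bp, F13b, Hc, Fga, Fgb, C8b, C8a and C1ra) and in 6.52% of 27025 promoters. The C/EBP word TTGCNNAA lay from -45 to -38 in C3 and was in 8 of 30 (26.7%), against 9.55% of all. The STAT word TTCNNNGAA lay from -53 to -45 in Masp2, overlapping the acute-phase word CTGGGAA on the other strand. These words were in 6 of 30 (20%) and 5 of 30 (16.7%), against 7.18% and 9.08% of all promoters. TATAAA was in 2 of 30, Hc (from -239 to -234) and Klkb1, against 13% of all. The HNF4 word CAAAGTCCA was in 0 of 30, against 0.381% of all. Its variant CAAAGGTCA, searched after the F7 promoter had been read, was in F7 alone, from -34 to -26, and in 0.407% of all. Of the 8 genes with the HNF1 half-site, Hc (0.75), F13b (0.66), C8a (0.64), C8b (0.60), Fga (0.57) and Fgb (0.30) had positive log2 fold changes. Those of C4bp (-0.04) and C1ra (-0.08) were negative, and a link of motif to fold change was not tested. A match is a description of the letters and not a binding site.

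Fibrinogen is a protein of 3 chains, encoded side by side on chromosome 3 by Fgg, Fga and Fgb, with 11026 bases between Fgg and Fga and 6.51 kb between Fga and Fgb. Fga, the alpha chain, had 3159, 2127 and 2988 CPM in the controls and 3181, 4978 and 4126 CPM in the knockouts (log2 fold change 0.57, SE 0.30, unadjusted p 0.0869). Every knockout liver lay above the controls, though mouse 49 hardly above mouse 42. Fgg, the gamma chain, had 2532, 1850 and 3380 CPM against 2382, 4667 and 3883 CPM (0.49, SE 0.35), with mouse 49 inside the control range. Fgb, the beta chain, had a log2 fold change of 0.30 (SE 0.33) with overlapping groups. F13b, the carrier subunit of the factor XIII that cross-links fibrin, had 141, 114 and 107 CPM against 143, 240 and 186 CPM (0.66, SE 0.23, unadjusted p 0.0211, adjusted p 0.375 in edgeR). The groups were separate by little, since knockout mouse 49 and control mouse 42 were nearly equal.

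Within a liver the ratio of chains does not depend on scaling. The ratio of Fga to Fgb counts was 0.929, 0.787 and 0.593 in control and 0.924, 0.886 and 0.883 in knockout livers, a mean of 0.770 ± 0.169 against 0.898 ± 0.0231 (SD, n = 3; two-sided exact permutation p 0.4). Control mouse 90 alone was far from the rest. The ratio of Fgg to Fgb was 0.745, 0.684 and 0.671 against 0.692, 0.830 and 0.831 (exact permutation p 0.2). Neither ratio separated the genotypes.

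The vitamin K-dependent proteins are proteases and cofactors that bind membranes through carboxylated glutamates. F7, the protease that starts clotting together with tissue factor, had 43.1, 31.3 and 53.8 CPM in the controls and 57.7, 99.6 and 99.9 CPM in the knockouts. All knockout livers were above all controls, mouse 49 narrowly and mice 82 and 88 clearly. Its fold was 2.01, the largest of the 38 genes (log2 fold change 1.01, SE 0.27, unadjusted p 0.0055, adjusted p 0.316 in edgeR). It was the only one of the 38 with an unadjusted p under 0.05 under all 19 alternatives, with log2 fold changes from 0.82 to 1.23 and adjusted p from 0.0531 (DESeq2) to 0.839. F9, the factor missing in haemophilia B, had 129, 96.9 and 142 CPM against 130, 209 and 187 CPM (0.52, SE 0.24, unadjusted p 0.0599), with mouse 49 inside the control range. Pros1, the cofactor protein S of the anticoagulant pathway, had 79.1, 85.3 and 84.2 CPM against 71.3, 112 and 133 CPM (0.34, SE 0.23). Its control livers were close together, while the knockout livers lay on both sides of them. The other members of this role, prothrombin F2 (0.36), factor X F10 (0.23) and protein C Proc (0.19), overlapped between genotypes, and Proc was at -0.06 without control mouse 83. F7 and F10 are neighbours on chromosome 8, 1498 bases apart on the same strand. The ratio of F7 to F10 counts was 0.166, 0.133 and 0.126 in control and 0.174, 0.252 and 0.279 in knockout livers (exact permutation p 0.1). Knockout livers were above the controls in this ratio too, mouse 49 again by the least.

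**Figure D2:**
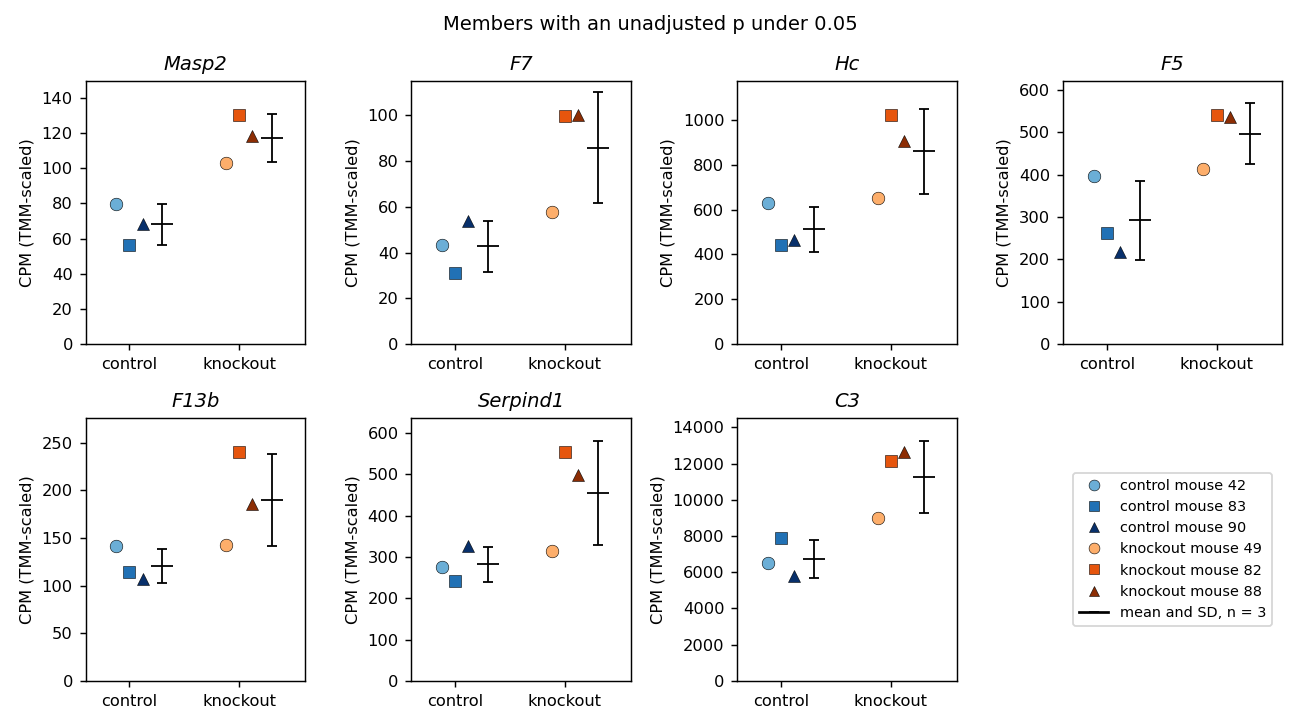
CPM of the 7 genes with an unadjusted p under 0.05 in edgeR, a panel for each gene, with a point for each liver and the mean and SD of 3 livers beside it; axes start at 0. In all but Serpind1 the knockout livers lie above the control livers, and knockout mouse 49 is the lowest knockout liver in each.

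Factor V and the contact system come next. F5, the cofactor that speeds the making of thrombin, had 397, 262 and 217 CPM in the controls and 413, 540 and 537 CPM in the knockouts (log2 fold change 0.77, SE 0.27, unadjusted p 0.0205, adjusted p 0.374 in edgeR). Groups were separate, with knockout mouse 49 just above control mouse 42. F11 had 48.7, 33.4 and 40.1 CPM against 39.6, 68.6 and 55.1 CPM (0.42, SE 0.24), and F12, the protease that starts the contact pathway, 376, 262 and 436 CPM against 409, 515 and 512 CPM (0.42, SE 0.25). In both, mouse 49 was inside the control range. Klkb1, plasma prekallikrein, stood at 0.51 (SE 0.31). Kng1, the kininogen from which bradykinin is released, differed least of the 38 genes, with 2109 ± 701 CPM in controls and 2106 ± 280 CPM in knockouts (SD, n = 3) and a log2 fold change of 0.00 (SE 0.30, 95% interval -0.68 to 0.68). F11 and Klkb1 lie 4.66 kb apart on chromosome 8 and arose from a common ancestral gene.

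Both serpin inhibitors of thrombin had positive log2 fold changes, and neither passed the test. Serpind1, heparin cofactor II, had 276, 243 and 327 CPM in the controls and 314, 554 and 499 CPM in the knockouts (log2 fold change 0.69, SE 0.26, unadjusted p 0.0275, adjusted p 0.396 in edgeR). Knockout mouse 49 was under control mouse 90. Serpinc1, antithrombin, had 1393, 1034 and 1854 CPM against 1532, 1703 and 1567 CPM (0.17, SE 0.27), the knockout livers within the control range. The difference between the fold changes of these genes was not tested.

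Plg, the precursor of the fibrin-dissolving protease plasmin, had 1285, 948 and 1521 CPM in the controls and 1417, 2306 and 2106 CPM in the knockouts (log2 fold change 0.64, SE 0.29, unadjusted p 0.0599). Serpinf2, the plasmin inhibitor antiplasmin, had 521, 418 and 527 CPM against 516, 899 and 790 CPM (0.59, SE 0.26, unadjusted p 0.0535). In both, mice 82 and 88 were above every control and mouse 49 was not. Cpb2, a carboxypeptidase that protects fibrin from plasmin, had 206, 289 and 394 CPM against 180, 344 and 324 CPM (-0.07, SE 0.32), and its sign turned without control mouse 90 (0.14) or knockout mouse 49 (0.17).

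In the classical complement pathway C1r and C1s proteases cleave C4 and C2. C4b had 956, 844 and 854 CPM in the controls and 748, 1353 and 1329 CPM in the knockouts (log2 fold change 0.37, SE 0.28), with mouse 49 the lowest and mice 82 and 88 the highest of the 6 livers. Its near-identical paralog C4a is not among the symbols of the count table, so C4b is uncertain. C1s1 had 334, 241 and 334 CPM against 304, 428 and 340 CPM (0.24, SE 0.23), and C1ra stood at -0.08 (SE 0.29), at 0.26 without control mouse 90. C1ra and C1s1 lie 6901 bases apart on chromosome 6. C2 had 10.5, 12.8 and 27.1 CPM against 14.5, 25.3 and 18.7 CPM (0.22, SE 0.37), with overlapping groups.

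The lectin pathway held both the gene with the smallest p and the gene with the most negative log2 fold change. Masp2, the protease that cleaves C4 and C2 once lectins have bound, had 79.7, 56.4 and 68.5 CPM in the controls and 103, 130 and 118 CPM in the knockouts. Groups were separate, and of the 8 genes with separate groups Masp2 had the highest ratio of the lowest knockout to the highest control liver. The fold was 1.71 (log2 fold change 0.78, SE 0.19, unadjusted p 0.00319), with an adjusted p of 0.288 in edgeR, 0.310 in limma-voom and 0.0244 in DESeq2. Over the alternatives the adjusted p ran from 0.0244 to 0.839. Of the exon bases of Masp2, 54.9% are also exons of Tardbp, which lies on the other strand, and the strand setting of the counting was not stated, so that reads of the pair may be mixed. Tardbp had a log2 fold change of -0.15 (SE 0.18). Masp1, the related lectin pathway protease, stood at 0.07 (SE 0.20), and at -0.09 with total-count scaling. The ratio of Masp2 to Masp1 counts, looked at after the values had been seen, was 0.524, 0.420 and 0.492 in control and 0.880, 0.723 and 0.782 in knockout livers (exact permutation p 0.1).

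The mannose-binding lectins, which start this pathway on microbial sugars, had opposite signs. Mbl1 had 104, 73.0 and 161 CPM in the controls and 115, 185 and 123 CPM in the knockouts (log2 fold change 0.32, SE 0.31), and Mbl2 392, 297 and 576 CPM against 401, 314 and 278 CPM (-0.35, SE 0.28). Groups overlapped in both. The ratio of Mbl2 to Mbl1, also chosen after the values had been seen, was 3.76, 4.07 and 3.57 in control and 3.48, 1.70 and 2.26 in knockout livers, 3.80 ± 0.253 against 2.48 ± 0.912 (SD, n = 3; exact permutation p 0.1). Mouse 49 was again next to the controls. Mbl2 was negative under all 19 alternatives, from -0.56 to -0.10.

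C3, on which all complement pathways meet, was the most abundant of the 38 genes, with 6494, 7906 and 5800 CPM in the controls and 9009, 12133 and 12639 CPM in the knockouts. The knockout livers lay above the controls (fold 1.67, log2 fold change 0.74, SE 0.30, unadjusted p 0.0364, adjusted p 0.426 in edgeR and 0.0599 in DESeq2). C3 took 0.685%, 0.945% and 0.533% of all counts in control and 0.904%, 1.10% and 1.19% in knockout livers, so in unscaled shares mouse 49 fell below control mouse 83. Cfb, factor B of the alternative pathway, had 31, 45 and 8 counts in control and 40, 36 and 36 counts in knockout livers (log2 fold change 0.63, SE 0.47). Its scaled values were separate, at 2.07, 2.29 and 0.654 CPM against 2.58, 2.70 and 2.59 CPM. The counts themselves overlapped, with control mouse 83 the highest, so the separation of Cfb rests on the scaling of low counts.

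The counts of Cfb and C2 have a limit of their own. These genes lie 85 bases apart on the minus strand of chromosome 17, and the annotated gene Gm20547 (chr17:34856412-34882042, GENCODE M21 on GRCm38, the assembly of mm10) runs across both. Gm20547 shares 79.5% of the exon bases of Cfb and 42.8% of those of C2, and it is listed at 0 in all 6 livers. Over the 6 livers Cfb has 196 counts and C2 1561, against 801126 for C3. How reads on the shared exons were counted is not known, and the part of Gm20547 in these low counts was not tested. Other genes with shared exons were Klkb1 (43.2%, with Gm45753), Serpinc1 (34.4%, with Zbtb37) and Plg (11.3%, with Slc22a3). The other 32 genes share no exon base with another gene of the table.

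The soluble regulators did not separate the genotypes. Cfi, the protease that inactivates C3b and C4b, had 608, 535 and 734 CPM in the controls and 604, 802 and 760 CPM in the knockouts (log2 fold change 0.21, SE 0.23). C4bp, the alpha chain of the C4b-binding protein that serves as its cofactor, had 647, 393 and 668 CPM against 528, 596 and 541 CPM (-0.04, SE 0.26). The knockout livers of C4bp all lay inside the control range.

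All 6 genes of the terminal pathway, whose products form the membrane attack complex, had positive log2 fold changes. Hc, the mouse C5, had 628, 443 and 466 CPM in the controls and 652, 1020 and 906 CPM in the knockouts (log2 fold change 0.75, SE 0.26, unadjusted p 0.0195, adjusted p 0.369 in edgeR). Groups were separate, with mouse 49 just above control mouse 42. C8 is built of 3 chains from separate genes. C8a had 449, 240 and 374 CPM against 430, 748 and 484 CPM (0.64, SE 0.31, unadjusted p 0.0677) and C8b 159, 89.4 and 203 CPM against 144, 312 and 229 CPM (0.60, SE 0.36). In both, mice 82 and 88 were above the controls and mouse 49 was not. C8a and C8b lie 11.1 kb apart on chromosome 4, and the ratio of their counts was 2.82, 2.69 and 1.84 against 2.98, 2.40 and 2.11 (exact permutation p 0.9). C8g (0.39), C9 (0.29) and C6 (0.22) overlapped between genotypes, and C6 was at -0.11 without control mouse 83, which had the lowest level of all.

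**Figure D3:**
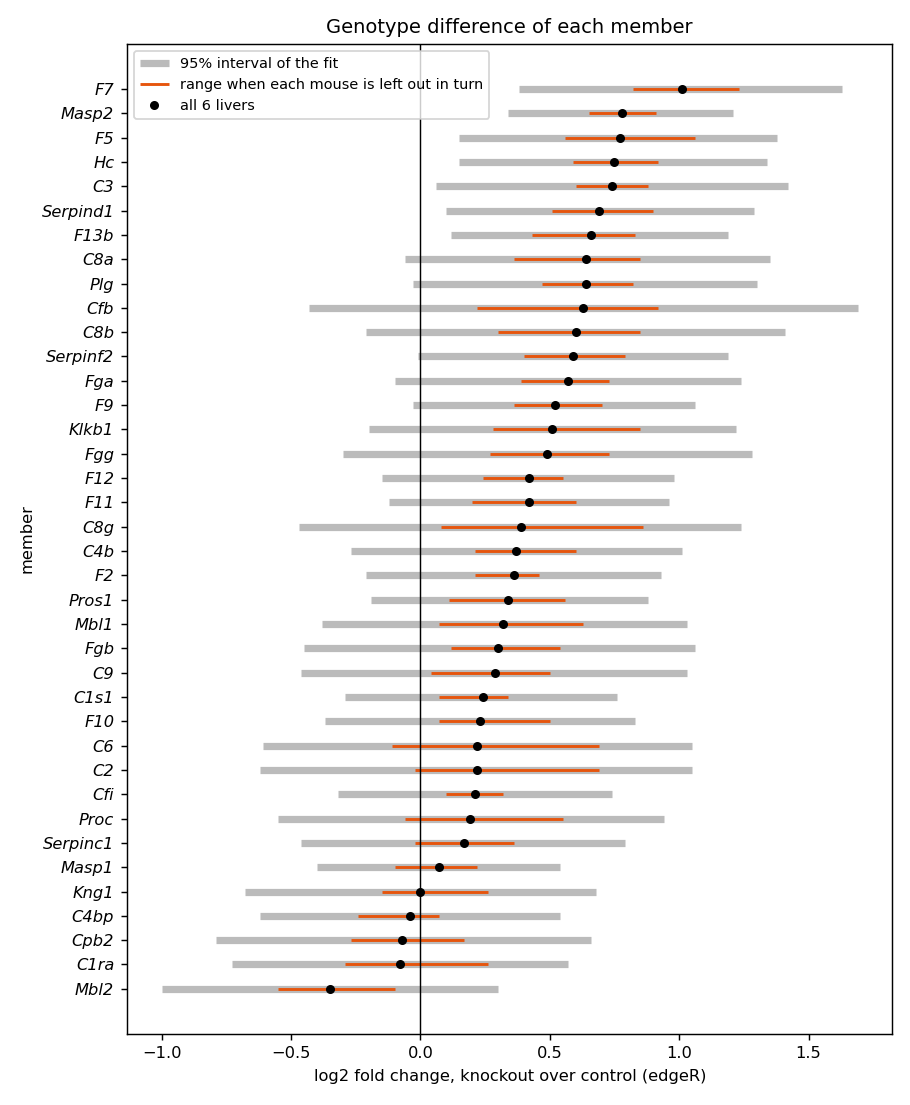
Log2 fold change of knockout over control for each gene from edgeR (black points), with the 95% interval of the fit (grey) and the range of values when each mouse is left out in turn (orange). The orange ranges of most genes stay above 0, among them F7 (0.82 to 1.23), Masp2 (0.65 to 0.91) and C3 (0.60 to 0.88). Those of Proc, Kng1, Serpinc1, Cpb2, C1ra, C2, Masp1, C4bp and C6 reach below and above 0, and that of Mbl2 (-0.55 to -0.10) stays below.

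Levels per kilobase of exon ran, as means over 6 livers, from 1749 CPM per kb for C3 down to 11.2 for Klkb1, with C2 (4.68) and Cfb (0.760), whose exons are shared with Gm20547, below that. C3 was highest, at 1309 ± 209 CPM per kb in control and 2189 ± 382 in knockout livers (SD, n = 3), followed by Fgg (1236 ± 366 and 1741 ± 555), Fga (916 ± 184 and 1361 ± 299) and Fgb (975 ± 315 and 1202 ± 287). Neighbours in the order of control means among these 4 overlapped within their SDs. Kng1 (649 ± 216 and 648 ± 86.1) and Plg (337 ± 77.5 and 524 ± 126) came next by the mean over 6 livers. Among the clotting proteases F2 stood at 248 ± 46.1 CPM per kb in control livers, F12 at 183 ± 45.1, F10 at 113 ± 38.4, F9 at 44.8 ± 8.43, F7 at 23.0 ± 6.06 and F11 at 18.2 ± 3.41, and neighbours in this order overlapped within their SD for F2 and F12, F12 and F10, and F7 and F11, but not for F10 and F9 or F9 and F7. In the lectin pathway Mbl2 (387 ± 130) stood above Mbl1 (71.9 ± 28.5), Masp2 (20.6 ± 3.53) and Masp1 (14.4 ± 0.949). The order of Masp2 and Masp1 depends on exon length (3.31 and 9.83 kb), since Masp1 had more counts in every liver. Masp2 also shares 54.9% of its exon bases with Tardbp. Cfb (0.591 ± 0.314) and C2 (4.34 ± 2.32) were last, with the shared exons described before.

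**Figure D4:**
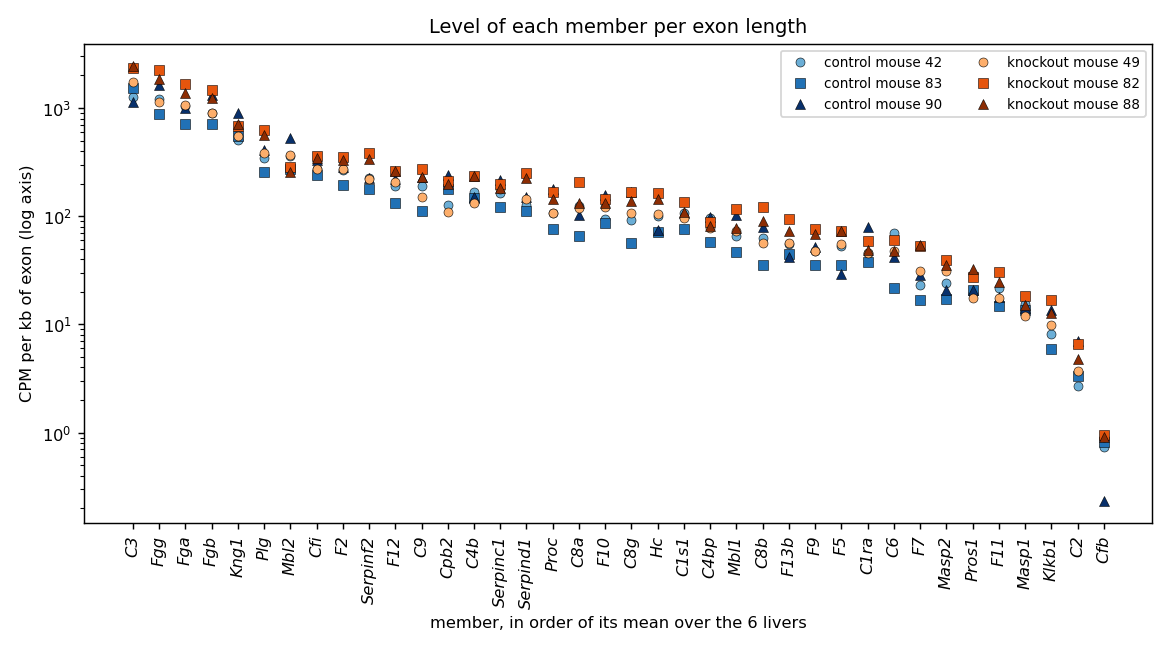
CPM per kb of exon on a log axis for each of the 38 genes, in order of the mean over 6 livers, with a point for each liver. C3 and the fibrinogen chains are at the top, and C2 and Cfb, whose exons are shared with Gm20547, at the bottom.

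Other genes of these pathways, from lists written by hand, leaned up in some lists and down in others, and 0 of them passed with edgeR. DESeq2 called Plaur, Serpine2, Lbp, Hamp and Nr1i3. Of 17 other plasma complement genes tested, 10 were positive (median 0.17), and at an unadjusted p under 0.05 there were 3 higher and 0 lower. Cpn2, a subunit of the carboxypeptidase that inactivates anaphylatoxins, had 194, 121 and 149 CPM against 198, 448 and 326 CPM (1.07, SE 0.32). Its groups were separate, with mouse 49 just above control mouse 42. Of 13 complement receptors and membrane regulators 10 were negative (median -0.56), with Itgax, a subunit of complement receptor 4 on myeloid cells, at -0.96 (SE 0.28) and Cd59a, which blocks the membrane attack complex, at 0.58 (SE 0.19). Of 10 macrophage markers 5 were positive, with summed levels of 396 to 1073 CPM in controls and 529 to 696 CPM in knockouts; all 5 neutrophil markers tested were negative, and the sum over the 7 listed was 18.2 CPM or more in controls and 11.2 to 17.5 CPM in knockouts, with the defining marker Ly6g at 0 to 4 counts per liver. All 7 bile duct markers (median -0.76) and all 8 lymphocyte markers (median -1.44) were negative too, with sums of 523 to 1299 against 284 to 740 CPM and of 7.67 to 27.7 against 7.64 to 8.95 CPM. The part of these cells in the values of the receptor genes and of the 38 genes was not tested.

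Of 25 other clotting and fibrinolysis genes 16 were negative (median -0.23), and 2 were higher but 6 lower by the unadjusted p. Plaur, the urokinase receptor, had 6.80, 10.6 and 7.36 CPM in the controls and 2.83, 1.95 and 3.17 CPM in the knockouts (-1.64, SE 0.32), and Serpine2, protease nexin 1, had 29.4, 60.2 and 32.5 CPM against 8.89, 14.6 and 18.1 CPM (-1.56, SE 0.34). Both were separate and had an adjusted p of 0.227 and 0.256 in edgeR, and of 0.00149 and 0.00513 in DESeq2. For the vitamin K cycle 3 of 5 genes could be tested, Nqo1 (-0.50, SE 0.34), Vkorc1l1 (0.13, SE 0.16) and Calu (-0.11). The carboxylase gene Ggcx is listed at 0 in every liver and Vkorc1 at 4 to 9 counts, so this step could not be followed. Vkorc1 shares 47.7% of its exon bases with Gm21974, also listed at 0, while Ggcx shares none. Whether these low counts reflect low expression was not tested.

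Most acute-phase plasma proteins had a positive log2 fold change, as did most of the 38 genes (86.8%, median 0.38). Of 19 tested 16 were positive (84.2%, median 0.51), with 3 higher (15.8%) and 1 lower by the unadjusted p. Lbp, which binds bacterial lipopolysaccharide, had 42.9, 51.6 and 65.1 CPM in the controls and 78.2, 156 and 127 CPM in the knockouts (1.18, SE 0.28), and Hamp, hepcidin, had 930, 213 and 1293 CPM against 126, 74.6 and 192 CPM (-2.64, SE 0.62). Both separated the genotypes, in opposite directions. Saa1, a serum amyloid, shows how far livers differed: 159, 65.8 and 531 CPM against 123, 2136 and 583 CPM, with mouse 82 far above the rest. Of 21 regulators 14 were positive (median 0.37), with 7 higher and 0 lower by the unadjusted p. The nuclear receptor gene Hnf4a had 790, 521 and 565 CPM against 952, 952 and 1050 CPM (0.65, SE 0.24, adjusted p 0.384 in edgeR), Nr1i3 stood at 1.34 (SE 0.28) and Onecut1 at 1.07 (SE 0.32), each with separate groups. Nr1i3 shares 74.9% of its exon bases with Tomm40l, which had 1354 counts over the 6 livers against 805 for Nr1i3. Reads of this pair may therefore be mixed. Stat3 (0.46, SE 0.23) and its target Socs3 (-0.51, SE 0.46) overlapped, and Il6 had 0 to 3 counts per liver.

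**Figure D5:**
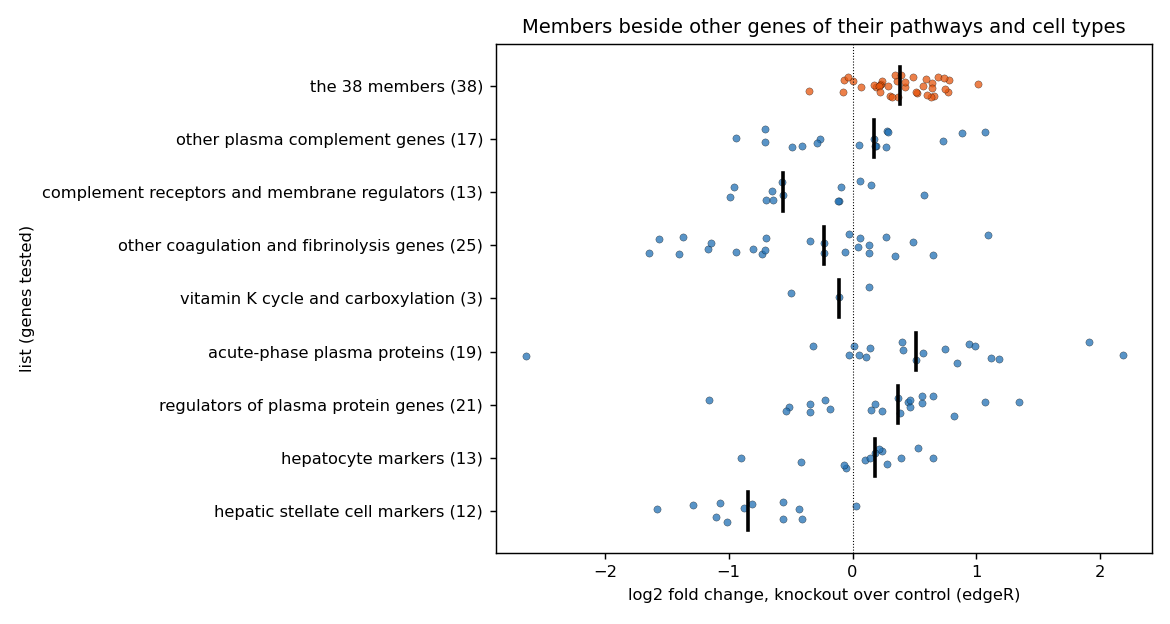
Log2 fold change of knockout over control (horizontal axis) of each tested gene in a list (rows), the 38 genes in orange, with the median as a black bar; vertical scatter within a row has no meaning. The median is 0.38 for the 38 genes, 0.51 for acute-phase plasma proteins and 0.37 for regulators of plasma protein genes. It is 0.18 for hepatocyte markers and -0.56 for complement receptors.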

How the data were processed

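RNA of whole liver from 6 mice was sequenced from NEBNext Ultra libraries, per the labels' protocols. The authors deposited raw counts per gene symbol. Per the submitters' processing notes, the tools were Trimmomatic, FastQC, STAR and HTSeq, and the build mm10. Tool versions, annotation, HTSeq mode and strand setting: not given in the sources used here. Columns were matched to mice by number, 0 columns were of other samples, and mice to genotypes by title. Counts were filtered with filterByExpr (13153 genes kept) and scaled by TMM. Knockout and control mice were compared by the quasi-likelihood F test in edgeR 4.0.16, run under R 4.3.3, in a model with genotype alone; the biological coefficient of variation was 0.268. The SE is the log2 fold change divided by the root of F, and 95% intervals from the t distribution. DESeq2 1.42.0 and limma 3.58.1 (voom) were alternatives. Exact permutation tests used log2 CPM (prior count 2), or log2 ratios, and 20 assignments. The test was checked on simulated counts. Exon lengths, positions and shared exon bases come from GENCODE M21 on GRCm38, where 21896 symbols matched once. Promoters are RefSeq's.

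The 38 genes and all gene lists were chosen with earlier results of these data known, though the rule for the 38 genes uses no measured value. Values in every liver are given for the 3 genes with the smallest p of each role with over 3 genes, all genes of smaller roles and all genes with an unadjusted p under 0.05; of other lists the 2 genes with the smallest p are named, except that 1 gene is not reported here. Further genes (Saa1, Calu, Ggcx, Vkorc1, Il6, Tardbp, Gm20547 and Gm21974) were picked with their values in view. The other alternatives were RLE or total-count scaling, other low-count filters, robust and newer edgeR fits, the 20 most abundant genes left out, the 38 genes left out of the scaling, an adjusted p of 0.10, a term for mouse number, mice 42 and 49 left out, and each mouse left out in turn.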

Additional observations from a re-analysis of the deposited data

How the results depend on the processing

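Of 721 fold changes of single genes under alternatives, 700 kept their sign and their side of the threshold, 20 changed sign and 1 passed it (Masp2, 0.77 in DESeq2). Genes past adjusted p 0.05 numbered 0 with all mice, 4 without a low-count filter, 238 in DESeq2, 6 with the mouse number term, 12 with hepatocyte marker scaling, 3 at an adjusted p of 0.10 and 0 to 13 when each mouse was left out. Of the 38 genes, 1 was called in DESeq2 and 0 in the other fits. Those higher at an unadjusted p under 0.05 numbered 7, then 4 with total counts and 12 in DESeq2. Without mice 42 and 49 there were 11, with hepatocyte marker scaling 1, and 2 to 15 when each mouse was left out. The share of all genes higher by that p was 5.06%, then 2.19%, 5.86%, 8.79% and 1.25% in the named settings. It was 1.83% to 9.13% when each mouse was left out. Those with separate groups numbered 8, then 5 with total counts, 25 without mice 42 and 49 and 3 with hepatocyte marker scaling. They numbered 8 to 23 when each mouse was left out. Of the 8, only F7 and Masp2 stayed separate with total counts. The share of all genes with separate groups and knockout livers above was 8.94%, then 3.60%, 26.2% and 2.05% in the named settings. The median of the 38 genes was 0.24 to 0.55 when each mouse was left out; total counts moved the median of all genes to -0.17 and that of the 38 genes to 0.25. Signs turned for Kng1 (0.03 in limma-voom, 0.01 with the mouse number term, -0.15 to 0.26 leaving out mice), Masp1 (-0.09 with total counts, -0.12 with hepatocyte marker scaling, -0.10 to 0.22), C4bp (0.10 without mice 42 and 49, -0.24 to 0.07), Cpb2 (-0.27 to 0.17), C1ra (-0.29 to 0.26), C2 (-0.02 to 0.69), C6 (-0.11 to 0.69), Proc (-0.06 to 0.55) and Serpinc1 (-0.02 to 0.36). The cause was not tested. No paired analysis was possible because the mouse numbers are not shared between genotypes.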
